A study of Mus musculus with 8 samples.

Results

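The 8 SOCS genes (Cish and Socs1 to Socs7) and the kinase genes Pim1 and Pim2 were followed across 8 mouse RNA-seq libraries. The 10 genes were taken by their symbols from a deposited table of 33504 genes, and each of the 10 had a row. FL-HSC (2 libraries) were hematopoietic stem cells of embryonic day 14.5, FL standing for fetal liver. Ex-HSC (3 libraries) carry the stage in vitro and were read as cells from the culture in the labels' protocols. In that culture, sorted embryonic cells were reaggregated with OP9 cells, a mouse stromal line, for 4 days with SCF, IL-3 and Flt3L, each at 100 ng/ml. Pre-HSC (3 libraries) were stem cell precursors of embryonic day 11.5, with no in vitro stage on their labels. All 3 groups had the strain background C57BL/6J. The conceptuses came from C57BL/6J females crossed with males that either carried a Ly6a-GFP transgene or were wild type, and which libraries carried the transgene is not given. The series' title puts the libraries to the question of how precursors mature into stem cells. Sort gates are not given, and nothing states that the libraries of a group had separate litters or cultures behind them, so the p-values below measure only the spread between these libraries.

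SOCS proteins (suppressors of cytokine signalling) are feedback inhibitors. A cytokine receptor activates JAK kinases, which phosphorylate STAT transcription factors, and STATs switch on Cish, Socs1, Socs2 and Socs3 among other genes. The SOCS proteins then bind the receptor or its JAK through an SH2 domain, and a second domain, the SOCS box, recruits a ubiquitin ligase. CIS (the product of Cish) and SOCS2 are known for restraining STAT5 signals such as those of IL-3, erythropoietin and growth hormone, SOCS1 for interferon and common gamma chain cytokines, and SOCS3 for receptors with the gp130 chain and for the G-CSF receptor. Socs4 to Socs7 are less tied to cytokine induction. Pim1 and Pim2 are also STAT-induced genes, but their products are serine/threonine kinases that promote survival and growth of blood cells and need no activation by a partner kinase.

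The start-site windows of 3 members are shown because the cytokine-induced genes differ in the number of matches to a STAT-type motif. The windows are from RefSeq on the build GRCm38.p6 and run from 250 bases before an annotated start site to 50 bases after it. Such windows were at hand for 6 of the 10 members, Pim1 having 2. None was at hand for Socs2, Socs5, Socs6 and Socs7, so their start sites were not searched. Capitals mark matches to TTCNNNGAA, the palindrome that STAT factors are known to bind. That motif reads the same on both strands. The Cish window is chr9:107296409-107296708 on the plus strand, the Socs3 window is chr11:117969317-117969616 on the minus strand, and the Socs1 window is chr16:10785487-10785786 on the minus strand.
Cish: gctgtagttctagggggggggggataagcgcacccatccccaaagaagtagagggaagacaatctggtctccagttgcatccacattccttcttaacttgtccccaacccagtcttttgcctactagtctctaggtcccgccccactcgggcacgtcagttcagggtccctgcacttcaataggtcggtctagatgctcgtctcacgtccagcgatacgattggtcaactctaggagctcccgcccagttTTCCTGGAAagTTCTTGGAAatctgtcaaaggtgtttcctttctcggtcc
Socs3: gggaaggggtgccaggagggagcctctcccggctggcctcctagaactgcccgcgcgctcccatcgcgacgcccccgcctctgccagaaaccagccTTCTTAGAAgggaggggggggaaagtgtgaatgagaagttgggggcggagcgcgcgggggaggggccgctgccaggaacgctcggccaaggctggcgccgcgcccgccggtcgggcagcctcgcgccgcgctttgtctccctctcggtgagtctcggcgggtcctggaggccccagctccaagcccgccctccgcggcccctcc
Socs1: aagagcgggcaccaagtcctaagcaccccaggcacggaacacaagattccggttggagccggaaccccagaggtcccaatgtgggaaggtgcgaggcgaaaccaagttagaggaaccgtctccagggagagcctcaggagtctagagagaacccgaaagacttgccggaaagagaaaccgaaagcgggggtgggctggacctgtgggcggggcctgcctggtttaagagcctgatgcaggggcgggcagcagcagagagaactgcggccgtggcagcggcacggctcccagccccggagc
The Cish and Socs3 windows lie inside the genes as GENCODE M21 draws them, which has starts farther upstream, and the Socs1 window ends inside its gene. The Cish window held 2 matches, TTCCTGGAA at position 1 and TTCTTGGAA at position 12, counted from the start site as 1 with no position 0. The Socs3 window held 1 match, TTCTTAGAA, whose first base was at position -154. No match was found in the windows of Socs1, Socs4, Pim1 and Pim2, which says only that these letters are not in those windows. The motif was found in 8.30% of 32851 windows of the same length in the RefSeq table, and 0.457% of them held 2 or more matches. The same palindrome with a spacer longer by 1 base was found in no member's window, against 6.95% of all windows.

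Levels are in FPKM, which counts fragments relative to transcript length and library size, so levels can be set side by side between genes per length. The table holds no counts and depth is unknown. Of the 33504 genes, 13720 had at least 1 FPKM in at least 2 libraries and were tested, and all 10 members were among them. Each of the 10 also reached that level without the libraries of any 1 group. Blood stem and progenitor markers were present in each group: 13 of 13 averaged 1 FPKM or more in FL-HSC, 12 of 13 in ex-HSC and 12 of 13 in pre-HSC, the exception in both being Slamf1 (0.713 FPKM in ex-HSC and 0.652 FPKM in pre-HSC). Their levels differed, with sums of 757 to 922 FPKM in FL-HSC, 405 to 724 FPKM in ex-HSC and 587 to 690 FPKM in pre-HSC. The means of Procr, Fgd5, Mecom, Gfi1 and Cd34 were lower in ex-HSC than in pre-HSC, and those of the other markers were higher. Fgd5 averaged 21.8 FPKM in FL-HSC, 4.16 FPKM in ex-HSC and 59.4 FPKM in pre-HSC, and Kit 117, 87.7 and 35.5 FPKM in the same order. Ex-HSC replicate 2 stood apart. It had 24992 genes above 0, against 15622 to 18374 in the other libraries, and it was the lowest ex-HSC library for 77.2% of tested genes and for 9 of the 10 members. After median-of-ratios scaling, which divided its values by 0.724, it was the lowest for 33.4% of tested genes and 6 of the 10 members. The median log2 fold change of all tested genes was -0.16 in ex-HSC against pre-HSC, 0.13 in FL-HSC against pre-HSC and 0.27 in FL-HSC against ex-HSC as deposited. After that scaling the 3 medians were -0.02, -0.02 and -0.03.

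In ex-HSC against pre-HSC, Cish, Socs1, Socs2, Pim1 and Pim2 rose and Socs3 and Socs6 fell. That made 5 members higher and 2 lower of 10 in limma at an adjusted p under 0.05, while 15.7% of all tested genes were called higher and 28.4% lower, 44.1% in all. In FL-HSC against pre-HSC, Socs2, Pim1 and Pim2 rose and Socs3 fell, with 22.9% of tested genes called higher and 20.4% lower, 43.3% in all. In FL-HSC against ex-HSC, Cish, Socs1, Socs2 and Socs3 fell, with 9.15% of tested genes called lower and 24.1% higher, 33.3% in all. No member was called higher there by limma, and 1, Socs7, was higher at an unadjusted p under 0.05. The median log2 fold change of the 10 members was 0.84 in ex-HSC against pre-HSC, 0.39 in FL-HSC against pre-HSC and -0.15 in FL-HSC against ex-HSC. The split of all called genes depended on the scaling. The share called higher in ex-HSC against pre-HSC was 35.6% as deposited, 48.2% after median-of-ratios scaling and 55.6% after quantile normalization. In FL-HSC against pre-HSC it was 52.9%, 45.2% and 57.7% in the same order, and in FL-HSC against ex-HSC it was 72.5%, 49.7% and 56.0%.

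**Figure D1:**
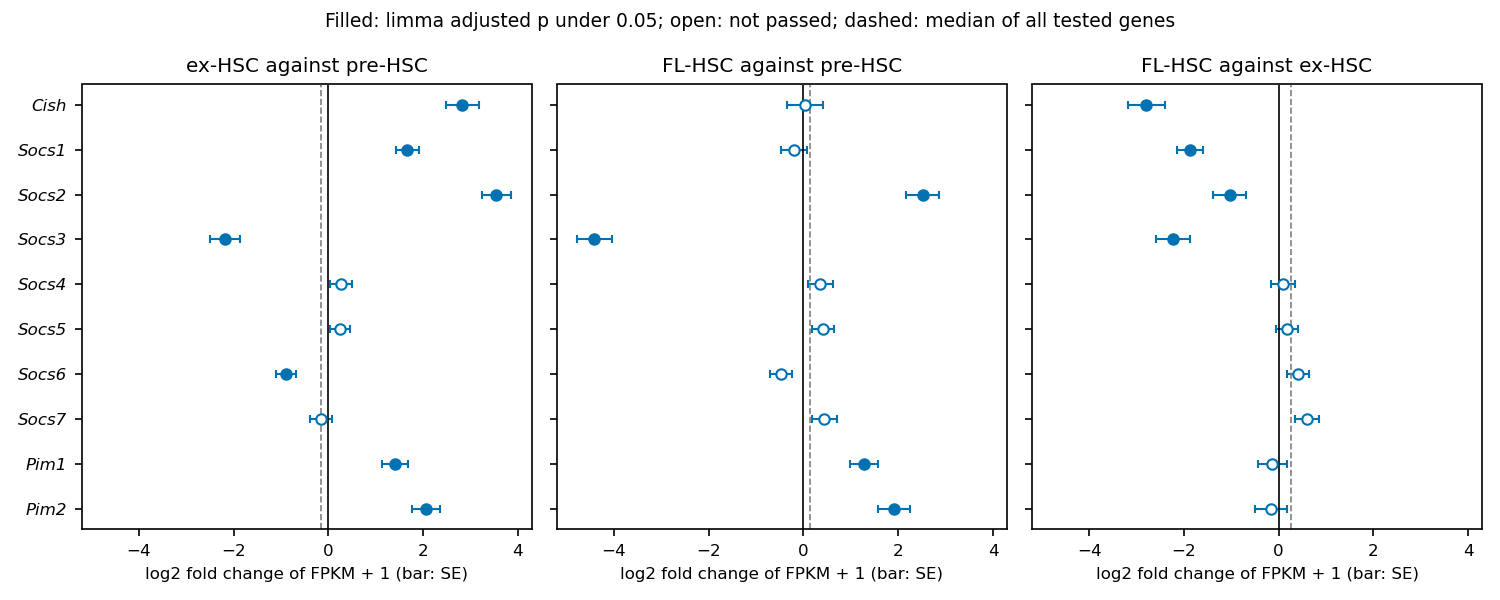
Log2 fold changes of the 10 members on the log2(FPKM + 1) scale (x axis) with bars of 1 SE, for each of the 3 comparisons in limma. Filled points passed an adjusted p of 0.05 over all tested genes, and the dashed line is the median of those genes. Socs3 lies to the left in each comparison, at -2.18 in ex-HSC against pre-HSC, -4.41 in FL-HSC against pre-HSC and -2.23 in FL-HSC against ex-HSC. Cish lies farther left than Socs3 in FL-HSC against ex-HSC, at -2.80. Socs2 lies far to the right against pre-HSC, at 3.55 in ex-HSC and 2.52 in FL-HSC.

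Cish, the founding member of the family and an early target of STAT5, was highest in culture. Its level was 7.59 and 2.40 FPKM in FL-HSC, 46.3, 25.3 and 41.4 FPKM in ex-HSC, and 3.23, 5.25 and 4.61 FPKM in pre-HSC. Each ex-HSC library lay above every other library, and the FL-HSC libraries lay on both sides of the pre-HSC range. Mean Cish was 8.64 times as high in ex-HSC as in pre-HSC (log2 fold change 2.83 ± 0.35 SE, limma adjusted p = 6.56e-05). In FL-HSC it fell by 2.80 ± 0.39 on the log2 scale against ex-HSC (limma adjusted p = 0.000481), and against pre-HSC the difference was 0.03 ± 0.39 (limma adjusted p = 0.958). The gene lies at chr9:107296026-107302784 on the plus strand (GENCODE M21, GRCm38), and 479 of its exonic bases, or 7.50%, overlap the antisense gene Gm17041. The pseudogene Gm17040 on the opposite strand shares 261 exonic bases with Cish, or 4.1%. The library kit does not mark strand, so reads of Cish and of these genes cannot be told apart where they overlap. Gm17040 had 0.235 to 0.816 FPKM in ex-HSC and was listed at 0 in FL-HSC and pre-HSC. Gm17041 had 2.95 and 3.94 FPKM as its lowest and highest level in FL-HSC, 20.8 and 49.0 FPKM in ex-HSC, and 4.48 and 6.35 FPKM in pre-HSC.

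Socs2, a regulator of growth hormone and STAT5 signalling, was higher both in culture and in the fetal liver. It had 16.5 and 30.3 FPKM in FL-HSC, 70.6, 30.4 and 47.7 FPKM in ex-HSC, and 3.14, 2.61 and 3.59 FPKM in pre-HSC. All 5 FL-HSC and ex-HSC libraries exceeded the 3 pre-HSC libraries, while FL-HSC replicate 2 and ex-HSC replicate 2 nearly met. The FL-HSC mean was 7.52 times the pre-HSC mean (2.52 ± 0.35 on the log2 scale, limma adjusted p = 0.000214). The ex-HSC mean was 15.9 times the pre-HSC mean (3.55 ± 0.31, limma adjusted p = 5.01e-06). The direct comparison of FL-HSC with ex-HSC gave -1.03 ± 0.35 (limma adjusted p = 0.0426). That call rested on single libraries: the adjusted p became 0.297 without FL-HSC replicate 1, 0.117 without ex-HSC replicate 1, 0.0835 without ex-HSC replicate 3 and 0.0608 without pre-HSC replicate 1.

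Socs1, which binds and blocks JAK kinases directly, was, like Cish, highest in culture. It had 3.13 and 3.98 FPKM in FL-HSC, 22.5, 11.8 and 14.3 FPKM in ex-HSC, and 3.76, 4.29 and 4.74 FPKM in pre-HSC. The lowest ex-HSC library was above every FL-HSC and pre-HSC library, and the FL-HSC and pre-HSC ranges overlapped. Mean Socs1 was 3.80 times as high in ex-HSC as in pre-HSC (log2 fold change 1.67 ± 0.25, limma adjusted p = 0.000247). In FL-HSC it fell by 1.88 ± 0.27 on the log2 scale against ex-HSC (limma adjusted p = 0.000647). Between FL-HSC and pre-HSC the difference was -0.21 ± 0.27 (limma adjusted p = 0.561).

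Socs3, the inhibitor of gp130 receptors, ran the other way and was the most abundant SOCS gene in pre-HSC. It had 1.13 and 1.83 FPKM in FL-HSC, 12.8, 5.53 and 16.1 FPKM in ex-HSC, and 43.9, 54.6 and 56.2 FPKM in pre-HSC. The 3 groups did not overlap, with FL-HSC lowest and ex-HSC between. Its mean in FL-HSC was 0.0287 of that in pre-HSC (-4.41 ± 0.36 on the log2 scale, limma adjusted p = 4.58e-06), and 1.10% of tested genes had a larger absolute change in that comparison. In ex-HSC the mean was 0.223 of that in pre-HSC (-2.18 ± 0.32, limma adjusted p = 0.000259). FL-HSC lay below ex-HSC by a further step (-2.23 ± 0.36, limma adjusted p = 0.00116). The gene spans chr11:117966079-117970047 on the minus strand (GENCODE M21, GRCm38). Of all tested genes, 82.0% had a higher mean than Socs3 in FL-HSC, 44.3% in ex-HSC and 14.0% in pre-HSC.

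**Figure D2:**
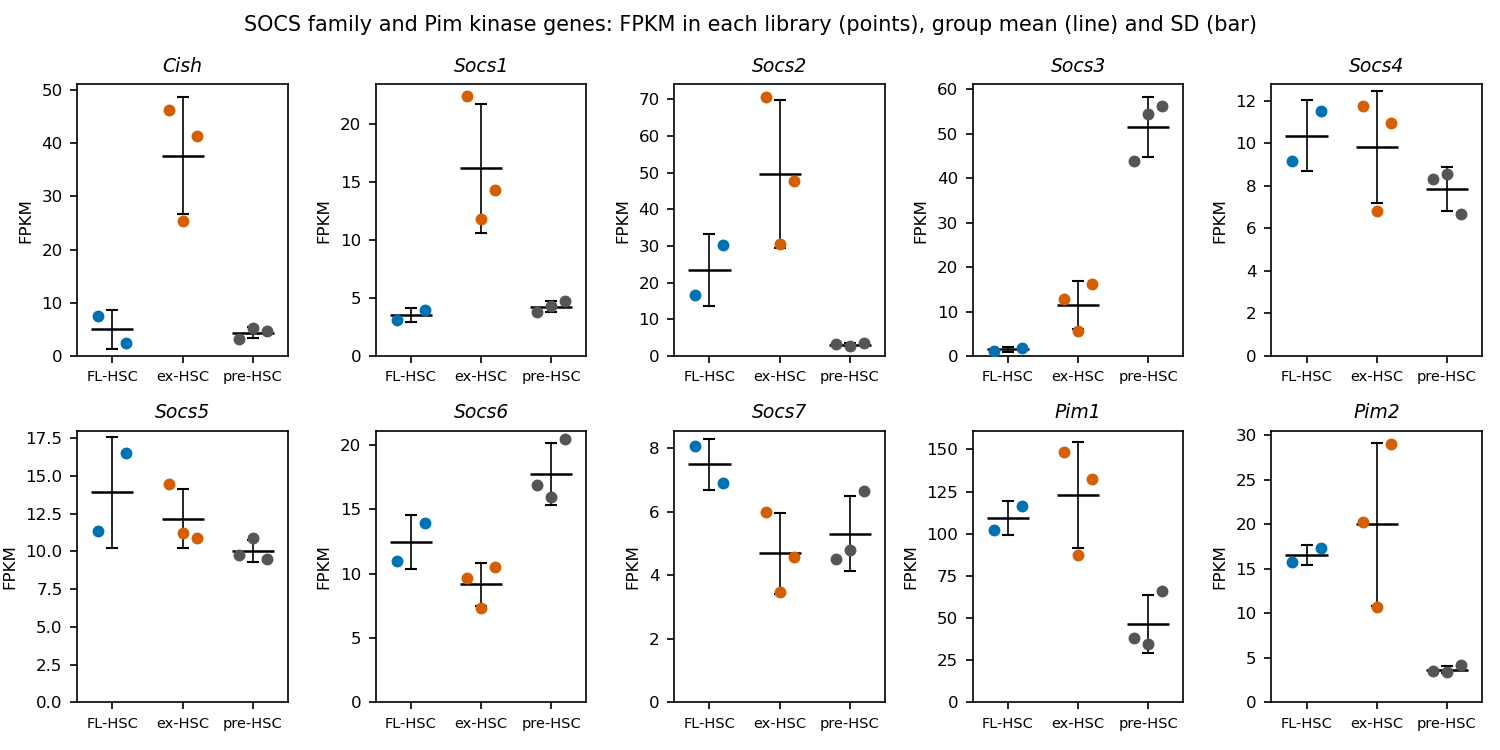
FPKM of each of the 10 members in every library (points; y axis starts at 0), with the group mean (line) and SD (bar), for FL-HSC (n = 2), ex-HSC (n = 3) and pre-HSC (n = 3). Cish and Socs1 are high in ex-HSC, Socs3 in pre-HSC, and Socs2, Pim1 and Pim2 in both FL-HSC and ex-HSC, while Socs4, Socs5 and Socs7 lie between 3.48 and 16.5 FPKM throughout.

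Socs4, Socs5, Socs6 and Socs7, of which Socs4 and Socs5 are known for restraining the EGF receptor, varied far less. Socs6 had 11.0 and 13.9 FPKM in FL-HSC, 9.69, 7.32 and 10.5 FPKM in ex-HSC, and 16.9, 15.9 and 20.4 FPKM in pre-HSC. Every pre-HSC library was above every other library. Socs6 fell by 0.89 ± 0.21 on the log2 scale in ex-HSC against pre-HSC (limma adjusted p = 0.00513). In FL-HSC against pre-HSC the difference was -0.48 ± 0.23 (limma adjusted p = 0.116), and it passed after median-of-ratios scaling (-0.65, limma adjusted p = 0.00764) and after quantile normalization (-0.53, limma adjusted p = 0.0184). Socs4 had 9.17 and 11.5 FPKM in FL-HSC, 11.7, 6.82 and 10.9 FPKM in ex-HSC, and 8.33, 8.55 and 6.68 FPKM in pre-HSC. Socs5 had 11.3 and 16.5 FPKM in FL-HSC, 14.4, 11.2 and 10.9 FPKM in ex-HSC, and 9.75, 10.8 and 9.50 FPKM in pre-HSC. Socs7 had 8.05 and 6.91 FPKM in FL-HSC, 6.00, 3.48 and 4.57 FPKM in ex-HSC, and 4.50, 4.78 and 6.65 FPKM in pre-HSC. For Socs4 the FL-HSC libraries were inside the ex-HSC range and above pre-HSC, for Socs5 both other groups were above pre-HSC, and for Socs7 FL-HSC was above both other groups. None of these 3 genes passed in any comparison, with log2 differences from -0.16 to 0.60 and limma adjusted p from 0.0999 to 0.814. After median-of-ratios scaling the ex-HSC against pre-HSC difference passed for Socs4 (0.42, limma adjusted p = 0.0451). After quantile normalization it passed for Socs4 (0.65, limma adjusted p = 0.00535) and Socs5 (0.60, limma adjusted p = 0.0159), and in FL-HSC against pre-HSC the difference passed for Socs4 (0.44, limma adjusted p = 0.0469) and Socs7 (0.58, limma adjusted p = 0.0434).

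Pim1 and Pim2, the survival kinases, were higher in FL-HSC and in ex-HSC than in pre-HSC. Pim1 had 102 and 117 FPKM in FL-HSC, 149, 87.6 and 133 FPKM in ex-HSC, and 38.3, 34.6 and 66.1 FPKM in pre-HSC. No library of FL-HSC or ex-HSC was as low as the highest pre-HSC library. The FL-HSC mean of Pim1 was 2.36 times that of pre-HSC (1.28 ± 0.30 on the log2 scale, limma adjusted p = 0.00619), and the ex-HSC mean was 2.65 times that of pre-HSC (1.41 ± 0.27, limma adjusted p = 0.00152). Pim1 was the member with the highest mean in FL-HSC and in ex-HSC, where 7.35% and 5.44% of tested genes had a higher mean. In pre-HSC its range overlapped that of Socs3, and 15.7% of tested genes had a higher mean. Pim2 had 15.8 and 17.3 FPKM in FL-HSC, 20.3, 10.7 and 29.1 FPKM in ex-HSC, and 3.48, 3.44 and 4.17 FPKM in pre-HSC. Here too the pre-HSC libraries lay below all others. Mean Pim2 was 4.48 times the pre-HSC mean in FL-HSC (1.90 ± 0.34, limma adjusted p = 0.00105) and 5.42 times in ex-HSC (2.06 ± 0.30, limma adjusted p = 0.000230). Between FL-HSC and ex-HSC the ranges overlapped for both genes, with differences of -0.14 ± 0.30 for Pim1 (limma adjusted p = 0.763) and -0.16 ± 0.34 for Pim2 (limma adjusted p = 0.751). The Pim2 difference was -0.53 without ex-HSC replicate 2 (limma adjusted p = 0.0914), and with median-of-ratios scaling as well it passed (-0.72, limma adjusted p = 0.0401). Of the exonic bases of Pim1, 488 (14.5%) overlap the antisense gene Gm26885, for which no value was analysed here.

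Pim3, the paralog outside the list, moved opposite to Pim1 and Pim2. It had 15.3 and 11.8 FPKM in FL-HSC, 18.0, 11.8 and 27.9 FPKM in ex-HSC, and 41.7, 48.0 and 49.7 FPKM in pre-HSC. All pre-HSC libraries exceeded all others. It fell by 1.72 ± 0.31 on the log2 scale in FL-HSC against pre-HSC (limma adjusted p = 0.00112) and by 1.31 ± 0.27 in ex-HSC against pre-HSC (limma adjusted p = 0.00264). Pim1 made up 78.4% ± 2.37 of the summed FPKM of Pim1, Pim2 and Pim3 in FL-HSC (SD, n = 2), 76.4% ± 5.55 in ex-HSC (n = 3) and 47.1% ± 7.49 in pre-HSC (n = 3). The sum itself was 133 to 146 FPKM in FL-HSC, 110 to 190 FPKM in ex-HSC and 83.5 to 120 FPKM in pre-HSC.

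The order of the members by mean level differed between the groups, and many neighbours in it overlapped. In FL-HSC the order was Pim1, Socs2, Pim2, Socs5, Socs6, Socs4, Socs7, Cish, Socs1 and Socs3, with Pim1 clear of Socs2, Socs4 clear of Socs7 and Socs1 clear of Socs3, while the libraries of all other neighbours overlapped. In ex-HSC it was Pim1, Socs2, Cish, Pim2, Socs1, Socs5, Socs3, Socs4, Socs6 and Socs7, where Pim1 was clear of Socs2 and Socs6 of Socs7 and all other neighbours overlapped. In pre-HSC it was Socs3, Pim1, Socs6, Socs5, Socs4, Socs7, Cish, Socs1, Pim2 and Socs2. There Socs3 overlapped Pim1, each gene from Pim1 to Socs7 was clear of the next up to Socs7, and each neighbour from Socs7 to Socs2 overlapped the next.

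The make-up of the SOCS family was different in each group. The summed FPKM of the 8 SOCS genes was 77.6 ± 13.8 in FL-HSC (SD, n = 2), 151 ± 46.4 in ex-HSC (n = 3) and 104 ± 9.75 in pre-HSC (n = 3), and the ex-HSC range of 102 to 194 overlapped the pre-HSC range of 93.5 to 112. Socs3 accounted for 1.88% ± 0.294 of that sum in FL-HSC, 7.44% ± 2.54 in ex-HSC and 49.4% ± 2.13 in pre-HSC. Cish, Socs1 and Socs2 together accounted for 41.1% ± 1.34 in FL-HSC, 68.1% ± 3.25 in ex-HSC and 11.2% ± 0.359 in pre-HSC. These shares are ratios within a library, so a scaling of whole libraries leaves them as they are, and none of their ranges overlapped between groups. Socs4 to Socs7 filled the rest, with 57.1% ± 1.63 in FL-HSC, 24.5% ± 3.45 in ex-HSC and 39.4% ± 2.46 in pre-HSC. Among the STAT5 targets the balance also differed. The ratio of Socs2 to Cish was 2.17 and 12.6 in the FL-HSC libraries, 1.15 to 1.52 in ex-HSC and 0.498 to 0.972 in pre-HSC. The FL-HSC libraries thus differed from each other in this ratio, with more Cish and less Socs2 in replicate 1.

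**Figure D3:**
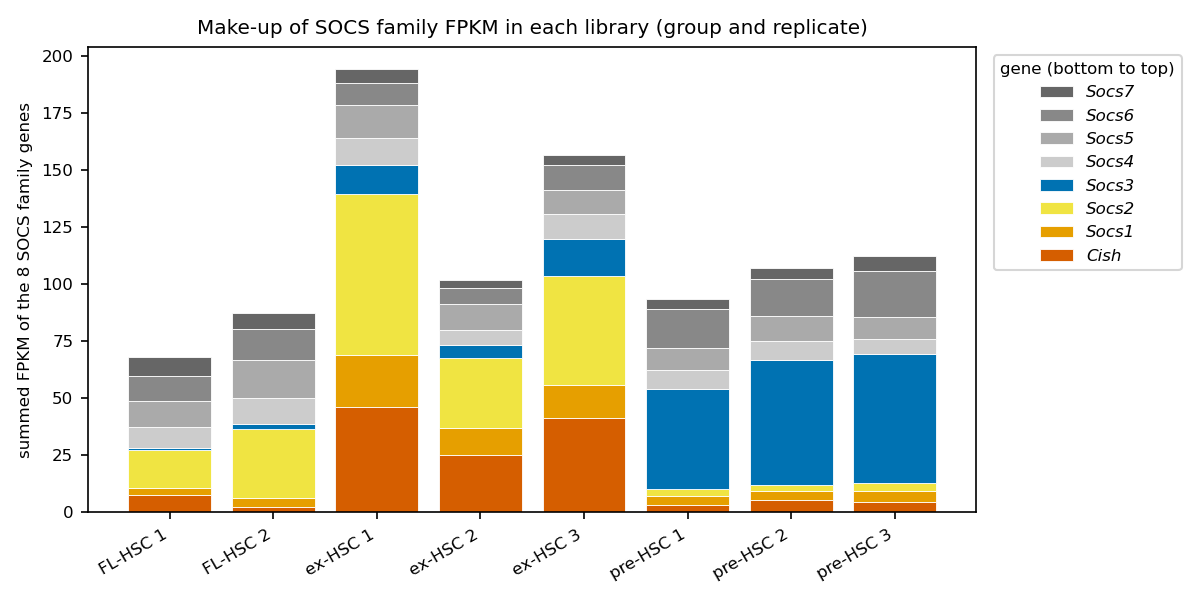
Summed FPKM of the 8 SOCS genes (y axis, from 0) in each of the 8 libraries of FL-HSC, ex-HSC and pre-HSC, with each bar divided into the FPKM of its genes, Cish at the bottom and Socs7 at the top. Socs3 takes 47.0% to 51.1% of the bar in pre-HSC and 1.67% to 2.09% in FL-HSC, and Cish, Socs1 and Socs2 take 66.1% to 71.8% in ex-HSC.

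Markers of other cell types moved with the groups. The 10 mast cell and basophil markers summed to 13.0 and 13.2 FPKM in FL-HSC, 2182 to 4703 FPKM in ex-HSC and 1.47 to 9.98 FPKM in pre-HSC. In FL-HSC 4 of the 10 averaged 1 FPKM or more and Tpsab1 and Fcer1a were listed at 0, in ex-HSC all 10 did, and in pre-HSC 2 did, where Mcpt4, Mcpt8, Tpsb2, Tpsab1, Fcer1a and Prss34 were listed at 0. Ex-HSC is also the group in which Cish and Socs1 were high. Endothelial markers summed to 109 to 125 FPKM in FL-HSC, 33.7 to 66.4 FPKM in ex-HSC and 2104 to 2342 FPKM in pre-HSC. An average of 1 FPKM or more was reached by 8 of 10 in FL-HSC, 8 in ex-HSC and 10 in pre-HSC, and no endothelial marker was at 0. Stromal markers summed to 12.3 to 19.8 FPKM in FL-HSC, with Dcn and Lum listed at 0, to 16.8 to 33.2 FPKM in ex-HSC and to 451 to 758 FPKM in pre-HSC, and 4 of 10 in FL-HSC, 8 in ex-HSC and 10 in pre-HSC averaged 1 FPKM or more. Pre-HSC is the group in which Socs3, Socs6 and Pim3 were high. Granulocyte markers summed to 506 to 614 FPKM in FL-HSC and 684 to 998 FPKM in ex-HSC, against 30.2 to 46.1 FPKM in pre-HSC, so that they were high in the same groups as Socs2, Pim1 and Pim2. Of these 10 markers, 9 in FL-HSC, 9 in ex-HSC and 4 in pre-HSC averaged 1 FPKM or more, Ly6g was listed at 0 in FL-HSC, and Ctsg and Ly6g were in pre-HSC. Macrophage markers summed to 344 and 48.9 FPKM in FL-HSC, 154 to 220 FPKM in ex-HSC and 225 to 1411 FPKM in pre-HSC, where 10 of 10 in FL-HSC, 9 in ex-HSC and 10 in pre-HSC reached that average. Erythroid markers summed to 234 to 376 FPKM in FL-HSC, 87.6 to 103 FPKM in ex-HSC and 555 to 745 FPKM in pre-HSC, and 9 of 9 in FL-HSC, 9 in ex-HSC and 5 in pre-HSC averaged 1 FPKM or more. The pre-HSC sum was mostly the embryonic globin gene Hbb-y, at 25.9 FPKM in FL-HSC, 11.2 FPKM in ex-HSC and 588 FPKM in pre-HSC. Klf1, Ermap, Rhag and Epor were highest in FL-HSC, with Klf1 at 87.0 FPKM in FL-HSC, 2.90 FPKM in ex-HSC and 0.822 FPKM in pre-HSC. Hepatocyte markers summed to 18.2 to 69.5 FPKM in FL-HSC, 19.8 to 27.4 FPKM in ex-HSC and 31.5 to 99.9 FPKM in pre-HSC, while 7 of 10 in FL-HSC, 2 in ex-HSC and 4 in pre-HSC averaged 1 FPKM or more. Trf was the largest term in each group, at 17.5 FPKM in FL-HSC, 20.0 FPKM in ex-HSC and 40.9 FPKM in pre-HSC, and Alb averaged 6.74 FPKM in FL-HSC, 0.00295 FPKM in ex-HSC and 0.381 FPKM in pre-HSC. Lymphoid markers summed to 12.0 to 13.6 FPKM in FL-HSC, with Dntt listed at 0, to 25.2 to 32.3 FPKM in ex-HSC and to 23.8 to 32.9 FPKM in pre-HSC, with Cd3e and Dntt listed at 0. Only Lck in FL-HSC, Lck and Il7r in ex-HSC and Lck in pre-HSC averaged 1 FPKM or more of these 10, with Lck at 11.7 FPKM in FL-HSC, 20.4 FPKM in ex-HSC and 26.4 FPKM in pre-HSC. The part of these cell types in the members' changes was not tested. In bulk libraries, fewer cells of a type and less RNA per cell cannot be told apart.

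The receptors upstream of the SOCS genes changed in both directions. Of 20 tested cytokine receptor genes, 8 rose and 4 fell in ex-HSC against pre-HSC, 6 rose and 5 fell in FL-HSC against pre-HSC, and 4 rose and 8 fell in FL-HSC against ex-HSC. Il7r, 1 of those higher in ex-HSC, passed the filter only through that group. The median log2 fold changes of the list were 0.53, 0.23 and -0.31 in the same order, beside -0.16, 0.13 and 0.27 for all tested genes. Csf2rb encodes the shared beta chain of the IL-3, GM-CSF and IL-5 receptors, upstream of STAT5 and thus of Cish. It had 16.7 and 11.3 FPKM in FL-HSC, 236, 85.5 and 106 FPKM in ex-HSC, and 5.44, 3.55 and 8.21 FPKM in pre-HSC. The ex-HSC libraries were far above all others, and FL-HSC was above pre-HSC without overlap. The change was 4.33 ± 0.37 in ex-HSC against pre-HSC (limma adjusted p = 4.39e-06) and -3.14 ± 0.42 in FL-HSC against ex-HSC (limma adjusted p = 0.000382). Csf2rb2, the IL-3-specific beta chain of the mouse, averaged 4.31 FPKM in FL-HSC, 110 FPKM in ex-HSC and 1.60 FPKM in pre-HSC. The 2 genes share sequence, so how their reads were divided is uncertain.

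Flt3 and Epor, receptors of other cytokines, were not highest in the same group. Flt3, the receptor of a cytokine in the culture medium, averaged 20.1 ± 4.61 FPKM in FL-HSC (SD, n = 2), 72.5 ± 15.8 FPKM in ex-HSC (n = 3) and 3.16 ± 0.512 FPKM in pre-HSC (n = 3). Against pre-HSC it rose by 2.33 ± 0.25 on the log2 scale in FL-HSC (limma adjusted p = 3.43e-05) and by 4.13 ± 0.22 in ex-HSC (limma adjusted p = 1.46e-07). Epor, the erythropoietin receptor, had 52.7 and 46.2 FPKM in FL-HSC, 5.34, 2.42 and 3.04 FPKM in ex-HSC, and 2.80, 2.97 and 5.13 FPKM in pre-HSC. Both FL-HSC libraries were above all others for Epor, and the ex-HSC and pre-HSC ranges overlapped. In FL-HSC against ex-HSC, Epor rose by 3.50 ± 0.31 (limma adjusted p = 2.78e-05).

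Il6st, the gp130 chain that SOCS3 acts on, and Lifr, its LIF-binding partner, were chosen for description after their values were seen. Il6st had 5.97 and 8.46 FPKM in FL-HSC, 4.08, 2.78 and 4.28 FPKM in ex-HSC, and 23.0, 20.7 and 21.8 FPKM in pre-HSC. The pre-HSC libraries, in which Socs3 was high, were above all others, and both FL-HSC libraries, in which Socs3 was lowest, were above the ex-HSC libraries. Il6st fell by 1.49 ± 0.24 on the log2 scale in FL-HSC (limma adjusted p = 0.000539) and by 2.29 ± 0.21 in ex-HSC (limma adjusted p = 7.56e-06) against pre-HSC. In FL-HSC against ex-HSC, where Socs3 fell, Il6st rose by 0.80 ± 0.24 (limma adjusted p = 0.0252), a call that was kept under 12 of 17 alternatives and was lost, among others, without FL-HSC replicate 2 (0.58, limma adjusted p = 0.178) and without pre-HSC replicate 1. Lifr averaged 0.0936 FPKM in FL-HSC, 1.43 FPKM in ex-HSC and 11.4 FPKM in pre-HSC, and fell in FL-HSC (-3.50 ± 0.21, limma adjusted p = 5.72e-07) and in ex-HSC (-2.35 ± 0.19, limma adjusted p = 2.80e-06) against pre-HSC.

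Of the cytokine genes, 9 were tested, and the filter on low values itself bears on their calls. Il3, Csf2, Il6, Lif and Il13 reached 1 FPKM in 2 libraries only through ex-HSC, and Kitl only through pre-HSC, so that a difference of these 6 genes between those groups was largely set by the filter and their calls are a description. All 5 were called higher in ex-HSC against pre-HSC and Kitl lower. The other 3 genes, Il4, Osm and Flt3l, also rose in ex-HSC against pre-HSC. Osm, which encodes a ligand of gp130 receptors, averaged 0.296 FPKM in FL-HSC, 6.90 FPKM in ex-HSC and 2.11 FPKM in pre-HSC (1.34 ± 0.45 in ex-HSC against pre-HSC, limma adjusted p = 0.0319). That call of Osm was lost without pre-HSC replicate 2 (0.87), without ex-HSC replicate 1, without ex-HSC replicate 3 and with no filter, with limma adjusted p up to 0.126. Flt3l averaged 11.4 FPKM in FL-HSC, 7.60 FPKM in ex-HSC and 3.59 FPKM in pre-HSC. Csf2, Il4 and Il13, which encode GM-CSF, IL-4 and IL-13, averaged 5.67, 11.2 and 10.3 FPKM in ex-HSC and 0.129, 1.00 and 0.532 FPKM in pre-HSC. Csf2, Il13 and Lif were listed at 0 in both FL-HSC libraries. Kitl, the ligand of Kit, had a mean of 0.390 FPKM in FL-HSC, 0.445 FPKM in ex-HSC and 18.7 FPKM in pre-HSC.

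Of the 11 JAK and STAT genes, Stat5a and Stat5b had their highest levels in FL-HSC. So did Jak1, with 68.4 and 67.1 FPKM in FL-HSC, and Jak3, with 54.9 and 63.7 FPKM. The means of Stat3, Tyk2 and Stat6 were also highest there, but the FL-HSC libraries of Tyk2 and Stat6 lay inside the ex-HSC range. Stat4 had its highest mean in ex-HSC, with 14.5 FPKM in FL-HSC, 26.2 FPKM in ex-HSC and 3.41 FPKM in pre-HSC. Stat5a had 51.1 and 48.3 FPKM in FL-HSC, 16.6, 7.73 and 9.71 FPKM in ex-HSC, and 7.36, 9.47 and 7.73 FPKM in pre-HSC. Stat5b had 50.5 and 50.2 FPKM in FL-HSC, 17.9, 11.1 and 14.2 FPKM in ex-HSC, and 15.5, 14.7 and 13.2 FPKM in pre-HSC. For both genes the FL-HSC libraries were above all others, and ex-HSC overlapped pre-HSC. Stat5a rose by 2.47 ± 0.29 in FL-HSC against pre-HSC (limma adjusted p = 5.78e-05) and by 2.10 ± 0.29 against ex-HSC (limma adjusted p = 0.000419). Stat5b rose by 1.74 ± 0.22 against pre-HSC (limma adjusted p = 0.000132) and by 1.76 ± 0.22 against ex-HSC (limma adjusted p = 0.000288). In ex-HSC, where Cish and Socs1 were high, the difference from pre-HSC was 0.37 ± 0.26 for Stat5a (limma adjusted p = 0.268) and -0.03 ± 0.20 for Stat5b (limma adjusted p = 0.920). The Stat5a difference passed after median-of-ratios scaling (0.52, limma adjusted p = 0.0479) and after quantile normalization (0.75, limma adjusted p = 0.00843), and the Stat5b difference turned to 0.13 there and to 0.26 after quantile normalization.

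Jak2, the kinase of the Epor and Csf2rb receptors, averaged 13.2 ± 4.33 FPKM in FL-HSC (SD, n = 2), 19.9 ± 4.48 FPKM in ex-HSC (n = 3) and 8.79 ± 0.339 FPKM in pre-HSC (n = 3), and rose in ex-HSC against pre-HSC (1.07 ± 0.23, limma adjusted p = 0.00281). Stat3, which acts below gp130, averaged 50.4 ± 10.5 FPKM in FL-HSC, 34.1 ± 8.20 FPKM in ex-HSC and 34.2 ± 2.02 FPKM in pre-HSC, and passed in no comparison (limma adjusted p = 0.0947 in FL-HSC against pre-HSC). Of the 11 JAK and STAT genes 5 were called in each comparison (45.5%), beside 44.1% of all tested genes in ex-HSC against pre-HSC, 43.3% in FL-HSC against pre-HSC and 33.3% in FL-HSC against ex-HSC. Of them, 3 rose and 2 fell in ex-HSC against pre-HSC, and 4 rose and 1 fell in FL-HSC against ex-HSC. In FL-HSC against pre-HSC 5 rose and 0 fell, and 7 and 0 did so at an unadjusted p under 0.05 in limma. The medians of the list were 0.24 in ex-HSC against pre-HSC, 0.53 in FL-HSC against pre-HSC and 0.54 in FL-HSC against ex-HSC. Jak1 averaged 67.8 FPKM in FL-HSC and 32.0 FPKM in ex-HSC (1.08 ± 0.21, limma adjusted p = 0.00329), and Jak3, the kinase of the common gamma chain, averaged 59.3 FPKM in FL-HSC and 18.6 FPKM in ex-HSC (1.67 ± 0.27, limma adjusted p = 0.00125). The falls of Jak1 (-0.55, limma adjusted p = 0.0345) and Jak3 (-0.81, limma adjusted p = 0.0199) in ex-HSC against pre-HSC depended on single libraries. Jak1 did not pass without any 1 of the 3 pre-HSC libraries or without ex-HSC replicate 3, with limma adjusted p up to 0.133, and Jak3 did not pass without pre-HSC replicate 3 (limma adjusted p = 0.0643).

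**Figure D4:**
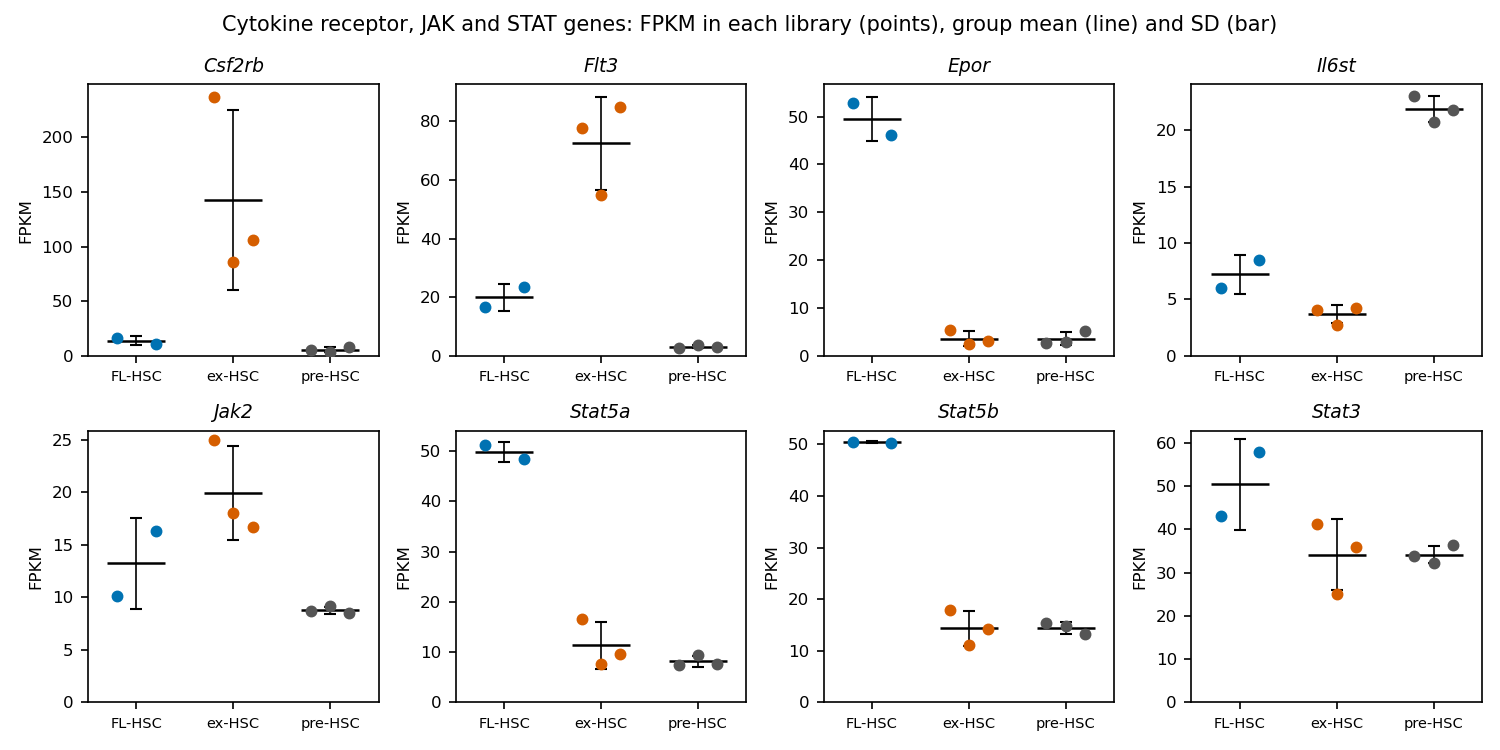
FPKM in every library (points), group mean (line) and SD (bar) of 8 cytokine receptor, JAK and STAT genes in FL-HSC (n = 2), ex-HSC (n = 3) and pre-HSC (n = 3). Epor, Stat5a and Stat5b are highest in FL-HSC, at 46.2 to 52.7 FPKM, while Csf2rb and Flt3 are highest in ex-HSC and Il6st in pre-HSC. Stat3 also has its highest mean in FL-HSC, at 50.4 FPKM, and passed in no comparison.

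Of 12 other negative regulators of JAK-STAT signalling, 3 rose and 3 fell in ex-HSC against pre-HSC, and 3 rose in each FL-HSC comparison with 0 falling (0 and 1 lower at an unadjusted p under 0.05 in limma). Ptpn6, which encodes the phosphatase SHP-1, averaged 159 ± 23.5 FPKM in FL-HSC, 153 ± 30.4 FPKM in ex-HSC and 52.3 ± 13.8 FPKM in pre-HSC and rose against pre-HSC in FL-HSC (1.61 ± 0.26, limma adjusted p = 0.000551) and in ex-HSC (1.55 ± 0.23, limma adjusted p = 0.000260). None of 6 partners of the SOCS box in the ubiquitin ligase was called in any comparison by limma, and none had an unadjusted p under 0.05. After median-of-ratios scaling 3 of these partners were called higher in ex-HSC against pre-HSC. Of the 13720 tested genes, 3643 were called higher there, against 2154 as deposited. Of 8 other STAT target genes, 4 rose in ex-HSC against pre-HSC (1 to 6 over the alternatives), Il2ra among them, which passed the filter only through ex-HSC, and 0 fell (also 0 at an unadjusted p under 0.05 in limma). In the other comparisons 1 rose and 1 fell in FL-HSC against pre-HSC, and 1 rose and 4 fell in FL-HSC against ex-HSC. Il2ra was among the 4 that fell. The gene that rose in FL-HSC was Myc, with 144 and 121 FPKM in FL-HSC, 41.4, 16.8 and 38.3 FPKM in ex-HSC, and 26.0, 34.2 and 28.6 FPKM in pre-HSC. Its change was 2.13 ± 0.34 against pre-HSC (limma adjusted p = 0.000517) and 2.10 ± 0.34 against ex-HSC (limma adjusted p = 0.00111). Of the 10 genes for the Pim paralog and Pim substrates, 2 rose and 3 fell in ex-HSC against pre-HSC, 3 rose and 2 fell in FL-HSC against pre-HSC, and 4 rose and 1 fell in FL-HSC against ex-HSC. Cdkn1a, the cell cycle inhibitor p21 that Pim kinases phosphorylate, averaged 4.28 ± 2.53 FPKM in FL-HSC, 123 ± 22.8 FPKM in ex-HSC and 22.2 ± 12.9 FPKM in pre-HSC. It rose in ex-HSC (2.53 ± 0.37, limma adjusted p = 0.000241) and fell in FL-HSC (-2.09 ± 0.42, limma adjusted p = 0.00224) against pre-HSC. Foxo3, a pro-apoptotic transcription factor, averaged 39.2 ± 0.771 FPKM in FL-HSC, 16.5 ± 4.92 FPKM in ex-HSC and 11.2 ± 0.415 FPKM in pre-HSC and rose in FL-HSC against pre-HSC (1.72 ± 0.25, limma adjusted p = 0.000322).

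In ex-HSC against pre-HSC, FL-HSC against pre-HSC and FL-HSC against ex-HSC, the shares called were 60%, 55% and 60% for the receptors, 50%, 25% and 25% for the other negative regulators, 50%, 25% and 62.5% for the other STAT targets and 50% each for the Pim paralog and substrates, beside 44.1%, 43.3% and 33.3% of all tested genes. In the same order the median log2 fold changes were -0.21, 0.24 and 0.46 for the other negative regulators, 0.07, -0.02 and -0.12 for the partners of the SOCS box, 0.51, -0.26 and -0.58 for the other STAT targets, and -0.11, 0.22 and 0.39 for the Pim paralog and substrates. The shares called for the receptors and the other STAT targets include Il7r and Il2ra in the comparisons with ex-HSC. Il7r and Il2ra were tested only through ex-HSC, so those calls were largely set by the filter.

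**Figure D5:**
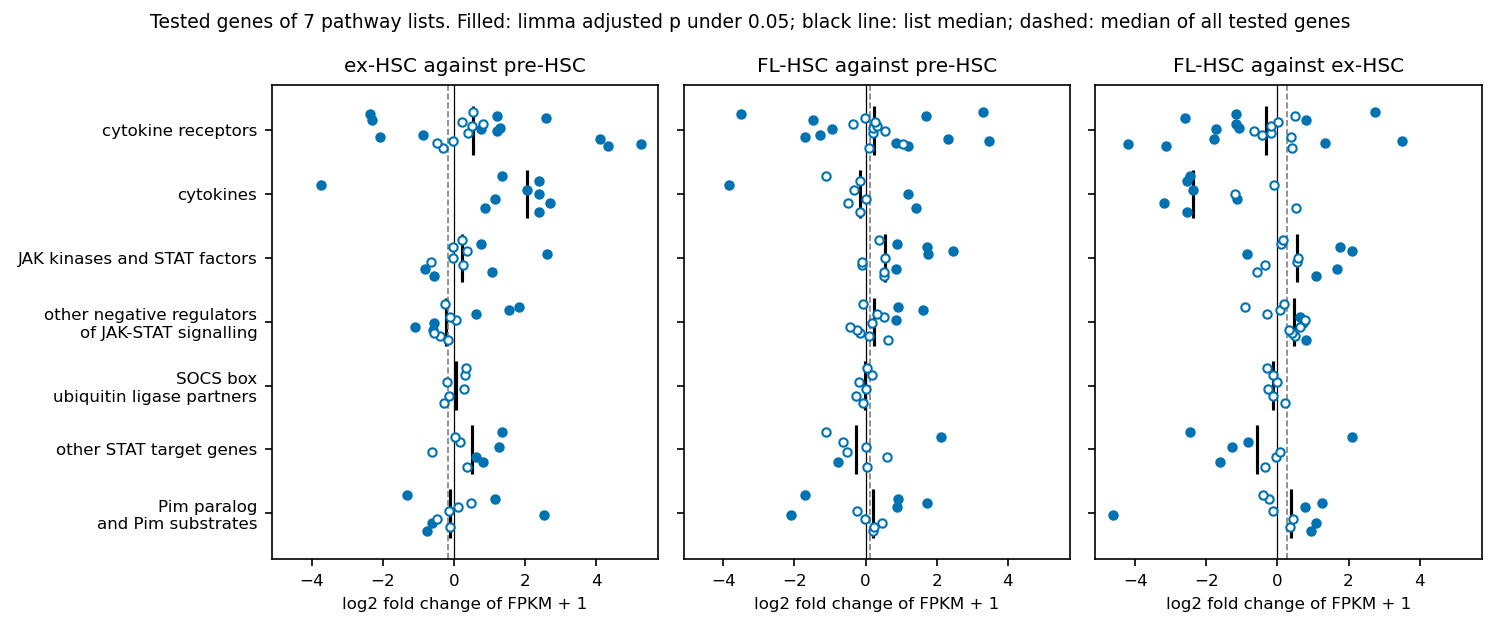
Log2 fold changes on the log2(FPKM + 1) scale (x axis) of the tested genes of 7 pathway lists (1 point per gene), filled where limma's adjusted p was under 0.05, with the list median (black line) and the median of all tested genes (dashed) in the 3 comparisons. Of the 9 cytokine genes, 5 were tested only through their level in ex-HSC and 1 only through pre-HSC, so the place of these points follows from the filter. Il7r and Il2ra were likewise tested only through ex-HSC. Every partner of the SOCS box is an open point near 0.

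The genes most like each member over the 8 libraries were ranked by Pearson's r of log2(FPKM + 1), as a description. The libraries form 3 groups, so the 8 points are not independent. For Cish they were Lgals3 (r = 0.983), Abracl (0.983) and Itgax (0.980), and for Socs1 they were Ero1l (0.994), Lif (0.992) and Nsdhl (0.992). Itgax averaged 0.262 FPKM in FL-HSC, 2.10 FPKM in ex-HSC and 0.137 FPKM in pre-HSC. Itgax and Lif passed the filter only through ex-HSC, where Cish and Socs1 were high, so their likeness was largely set by the filter. Lgals3 averaged 11.2 FPKM in FL-HSC, 139 FPKM in ex-HSC and 8.36 FPKM in pre-HSC. For Socs2 they were Ptpn3 (0.994), Plgrkt (0.993) and Satb1 (0.993). Socs3 was most like Plk2 (0.995), Rhod (0.994) and Fam198b (0.989), and Plk2 averaged 1.84 FPKM in FL-HSC, 19.9 FPKM in ex-HSC and 151 FPKM in pre-HSC. Pim1 was most like Tnfrsf13b (0.995), Epsti1 (0.994) and Shisa5 (0.989), and Pim2 like Enkd1 (0.994), Vrk1 (0.993) and Tmem251 (0.992). Socs6 was most like Accs (0.993), Slc12a9 (0.986) and Ctxn1 (0.984).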

How the data were processed

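Poly(A)-selected RNA from sorted cells was sequenced in paired-end libraries made with the NEBNext Ultra kit, per the labels' protocols; that kit does not mark strand. The authors deposited 1 table of FPKM per gene and library, per the file headers. Cufflinks, featureCounts, edgeR and DESeq are named in the submitters' processing notes with the mouse build mm9, and their versions and roles are not given in the sources used here. Of 33531 rows, 27 with dates in place of symbols were left out. Depth is unknown, and low values did not recover whole reads (at most 2.48% of genes sat at a shared ratio). Values were transformed to log2(FPKM + 1), which understates the change of low genes. Tested genes reached 1 FPKM in 2 or more libraries. The model was fitted in limma 3.58.1 (R 4.3.3) with 1 mean per group, all 8 libraries and an intensity trend. Benjamini-Hochberg adjustment ran over all 13720 tested genes, calls were made under 0.05, and the procedure was tested on simulated data. Rose, fell and changed are used of called genes. Log2 fold changes are given ± SE.

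The members, lists and tests were chosen with earlier results of these data known. Named genes were the 10 members, up to 4 called genes with the largest changes per list and comparison, the JAK, STAT3 and STAT5 genes, Pim3, and the 3 genes most like each called member, apart from symbols of predicted genes. Il6st, Lifr, Gm17040, Gm17041 and Slamf1 were added after their values were seen, as were the other genes named from the marker lists. Some genes that the rule names are not reported here. Coordinates and overlaps are from GENCODE M21 on GRCm38 and were not converted from mm9. Alternatives were a replicate block, each library left out, fits of 2 groups, no trend, quantile normalization, median-of-ratios scaling, a minimum of 5 FPKM or none, and a pseudocount of 0.1. The omission of ex-HSC replicate 2 together with median-of-ratios scaling was added after the data were seen.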

Additional observations from a re-analysis of the deposited data

How the results depend on the processing

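Of the 15 member changes called, 14 were called in the same direction under all 17 alternatives. The exception was Socs2 in FL-HSC against ex-HSC, which was not called with no filter, with the replicate block (-0.98, limma adjusted p = 0.0721), in the fit of the 2 groups alone or without 4 of the single libraries. Whether the replicate numbers pair the libraries could not be decided from the values. Deviations of same-numbered libraries correlated between -0.114 and 0.144, and those of differently numbered libraries between -0.229 and 0.229. The 2 FL-HSC libraries deviate from their mean in equal and opposite ways, so their correlations with any other library differ only in sign. Under the replicate block 5 members were higher and 2 lower in ex-HSC against pre-HSC, 3 and 1 in FL-HSC against pre-HSC, and 0 and 3 in FL-HSC against ex-HSC.

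Members called lower in FL-HSC against pre-HSC numbered 2 in place of 1 after median-of-ratios scaling, after quantile normalization, without ex-HSC replicate 2, and with that scaling and omission together, and members called higher numbered 5 in place of 3 after quantile normalization. Over the single libraries left out, the lower count was 1 to 2. The counts over all 13720 tested genes moved as well. In FL-HSC against pre-HSC, genes called lower numbered 2800 in the main analysis and 3725 after median-of-ratios scaling. They numbered 3103 after quantile normalization, 3106 without ex-HSC replicate 2 and 3621 with that scaling and omission together. Genes called higher numbered 3147 in the main analysis and 4227 after quantile normalization. Over all alternatives, members called in ex-HSC against pre-HSC numbered 5 to 7 higher and 2 lower, and in FL-HSC against ex-HSC 0 higher and 3 to 5 lower. Of 510 member values under the alternatives, 472 kept direction and side of the threshold, 11 newly passed, 7 no longer passed and 20 changed sign. Of 1403 values of named pathway genes, 1281 kept both, 17 newly passed, 91 no longer passed and 14 changed sign. None of the values that changed sign was called in the main analysis. Counts of list genes that moved by over 1.5 times are given as a range over the alternatives beside the main count. In ex-HSC against pre-HSC these were 3 to 6 beside 3 higher and 0 to 3 beside 2 lower for JAK and STAT genes, 4 to 8 beside 8 higher for cytokines, 1 to 4 beside 3 lower for other negative regulators, 0 to 3 beside 0 higher for SOCS box partners, 1 to 6 beside 4 higher and 0 to 1 beside 0 lower for other STAT targets, and 2 to 4 beside 2 higher and 1 to 4 beside 3 lower for the Pim list. In FL-HSC against pre-HSC they were 3 to 7 beside 5 higher for JAK and STAT genes, 1 to 2 beside 2 higher and 1 to 3 beside 1 lower for cytokines, 1 to 6 beside 3 higher and 0 to 2 beside 0 lower for other negative regulators, 0 to 1 beside 0 lower for SOCS box partners, and 1 to 2 beside 1 higher and 0 to 3 beside 1 lower for other STAT targets. In FL-HSC against ex-HSC they were 0 to 3 beside 1 lower for JAK and STAT genes, 3 to 7 beside 6 lower for cytokines, 0 to 5 beside 3 higher and 0 to 2 beside 0 lower for other negative regulators, 0 to 3 beside 0 lower for SOCS box partners, 2 to 5 beside 4 lower for other STAT targets, and 2 to 4 beside 4 higher and 1 to 3 beside 1 lower for the Pim list. Under a minimum of 5 FPKM, Csf2, Lif, Il2ra and Bcl6 were not tested and have no value. The cause of these shifts was not tested.

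The log2 differences that changed sign were as follows. After median-of-ratios scaling, Stat3 was 0.13 and Stat5b 0.13 in ex-HSC against pre-HSC, Cish was -0.12 in FL-HSC against pre-HSC, and Socs4 was -0.23, Socs5 -0.17 and Tyk2 -0.18 in FL-HSC against ex-HSC. With ex-HSC replicate 2 also left out, Socs7 was 0.0124, Stat3 0.18 and Stat5b 0.15 in ex-HSC against pre-HSC, Cish was -0.12 in FL-HSC against pre-HSC, and Socs4 was -0.31, Socs5 -0.0727 and Tyk2 -0.29 in FL-HSC against ex-HSC. After quantile normalization, Socs7 was 0.29, Stat3 0.10 and Stat5b 0.26 in ex-HSC against pre-HSC, Socs1 was 0.0249 in FL-HSC against pre-HSC, and Socs4 was -0.21, Socs5 -0.16 and Tyk2 -0.17 in FL-HSC against ex-HSC. Under the replicate block, Pim1 was 0.0401 and Pim2 0.0312 in FL-HSC against ex-HSC. With single libraries left out, Stat3 ranged from -0.18 to 0.17 and Stat5b from -0.19 to 0.13 in ex-HSC against pre-HSC, and Cish from -0.64 to 0.70 in FL-HSC against pre-HSC. In FL-HSC against ex-HSC the ranges were -0.13 to 0.24 for Socs4, -0.0861 to 0.42 for Socs5, -0.36 to 0.0172 for Pim1, -0.53 to 0.15 for Pim2 and -0.10 to 0.30 for Tyk2. Depth is unknown, so no limit from counting can be given for members near 1 FPKM, such as Socs3 in FL-HSC.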
